A study of Mus musculus with 8 samples.

Results

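The 10 genes described here are *Trp53*, which encodes the transcription factor p53, and 9 genes of its response and of BH3-driven apoptosis: *Mdm2*, *Cdkn1a*, *Ccng1*, *Phlda3*, *Trp53inp1*, *Bax*, *Bbc3*, *Pmaip1* and *Bcl2l11*. They were chosen by name, from general knowledge of the pathway and with earlier results of these data known, and all 10 were found among the 24385 features of the expression table. RNA sequencing was performed on embryonic mouse hearts at E8.5 and E9.5, with 2 libraries from each genotype and stage and 8 libraries in all. The question was how loss of microRNAs (miRNAs) in heart progenitors alters the transcriptome.

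All embryos were on the C57BL/6 background. The labels call the controls wild type (WT) and the mutants Mesp1Cre/+; Dgcr8-/- (conditional knockout, cKO). According to the study's methods, the controls carried floxed *Dgcr8* on both alleles and a Rosa26 mT/mG reporter allele without Cre. The cKO embryos carried the same floxed alleles and reporter together with Mesp1 Cre/+, so the genotypes also differ by the Cre allele. *Dgcr8* encodes the partner of Drosha that binds primary miRNA transcripts, and *Mesp1*-Cre acts only in cells descended from *Mesp1*-expressing mesoderm, so other cells of a dissected heart keep the gene. How many embryos were pooled for a library was not stated, and the study calls the libraries of a group independent biological replicates.

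The p53 protein is held at a low level by the ubiquitin ligase MDM2, which is itself a p53 target. Stress that stabilises p53 raises the transcription of genes that stop the cell cycle, such as *Cdkn1a*, and of genes that open the mitochondrial outer membrane, such as *Bax* and the BH3-only genes *Bbc3* (PUMA) and *Pmaip1* (NOXA). *Bcl2l11* (BIM) is a BH3-only gene usually induced by other routes and is a well known target of the miR-17-92 cluster. Because p53 is controlled mainly as a protein, the amount of its transcript does not report its activity.

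The start regions of 3 members are shown because a pair of p53 half-site consensus sequences, each of 10 letters, was found in them. The pairs were allowed a spacer of up to 13 bases and at most 2 mismatches, within 250 bases before and 50 after the RefSeq transcript start. The consensus reads the same on both strands, so each match counts for both, and overlap with other motifs was not examined. Such a pair was present in 4.09% of 32851 start regions of all genes and in 3 of the 12 start regions that the RefSeq table held for 8 members. In the sequences, written on the strand of the gene with GRCm38.p6 coordinates, capitals mark the half-sites. *Cdkn1a* (chr17:29090729-29091028, plus strand) matched with 0 mismatches, which 0.0731% of all start regions did, and the best match of its second start region had 5. The pair lies at chr17:29090906-29090937. Capitals mark the pair with the fewest mismatches, whose half-sites are set apart by a spacer. The letters tgacatgttc, which directly follow its second half-site, form with that half-site another pair, without a spacer and with 1 mismatch. That pair is not marked. *Ccng1* (chr11:40755237-40755536, minus strand) matched with 1 mismatch and *Bax* (chr7:45466849-45467148, minus strand) with 2. A match of letters does not show that p53 binds there.

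Cdkn1a: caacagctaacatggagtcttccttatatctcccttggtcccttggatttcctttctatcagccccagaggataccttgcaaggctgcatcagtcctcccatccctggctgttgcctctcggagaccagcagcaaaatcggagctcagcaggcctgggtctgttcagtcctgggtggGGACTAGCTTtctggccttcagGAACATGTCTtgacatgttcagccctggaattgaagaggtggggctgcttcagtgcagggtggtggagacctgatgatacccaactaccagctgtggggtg
Ccng1: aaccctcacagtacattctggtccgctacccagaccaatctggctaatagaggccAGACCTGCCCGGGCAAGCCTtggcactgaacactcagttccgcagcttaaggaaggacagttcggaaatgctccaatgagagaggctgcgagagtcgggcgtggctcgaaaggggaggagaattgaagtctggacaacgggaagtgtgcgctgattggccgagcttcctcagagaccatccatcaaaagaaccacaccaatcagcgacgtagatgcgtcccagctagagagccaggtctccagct
Bax: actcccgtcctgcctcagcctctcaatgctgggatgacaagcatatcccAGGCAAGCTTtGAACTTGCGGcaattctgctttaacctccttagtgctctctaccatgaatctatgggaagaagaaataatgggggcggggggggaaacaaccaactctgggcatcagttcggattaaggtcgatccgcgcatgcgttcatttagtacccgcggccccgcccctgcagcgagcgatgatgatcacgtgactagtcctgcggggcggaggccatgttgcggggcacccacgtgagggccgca

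The miRNAs are shown because their processing is what the deletion removes. The seeds of the miR-17 family and of miR-221 are shown, since more members held their sites than those of the other seeds searched. Capitals mark the seed, bases 2 to 8 of the mature miRNA as RefSeq gives it, and miR-17, miR-20a, miR-93 and miR-106b share the same seed. Of the miRNAs printed, only miR-20a-5p is in the study's list of the most abundant miRNAs of E9.5 hearts. Whether the others are expressed there was not examined.

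miR-17-5p: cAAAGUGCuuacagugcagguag
miR-20a-5p: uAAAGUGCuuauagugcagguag
miR-93-5p: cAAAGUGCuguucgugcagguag
miR-106b-5p: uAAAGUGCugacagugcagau
miR-221-3p: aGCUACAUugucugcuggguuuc

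Exact matches to the complement of a seed were sought on the coding strand of the 3′ untranslated region of 1 transcript per gene. The 6 seeds searched were chosen from general knowledge and from the miRNA the study followed, with results of these data known. The site of the miR-17 family, GCACTTT, was present in 4 of 10 members and in 12.4% of 9050 tested genes. That of miR-221, ATGTAGC, was present in 4 members and in 9.27% of tested genes. The site of miR-34a, itself a p53 target, was found in 1 member, *Bax*, and in 15.9% of genes, and that of miR-541-5p in 0 members and 7.29% of genes. The sites of miR-125b (CTCAGGG) and miR-92a (GTGCAAT) were found in 2 members and 1 member, beside 14.6% and 6.3% of genes. A longer untranslated region holds more matches: it had 4420 bases in *Trp53inp1*, 4218 in *Bcl2l11* and 2316 in *Ccng1*, beside a median of 1041 over the tested genes, but only 1329 in *Cdkn1a*. The miR-17 family sites are given with their surroundings and NCBIM37 coordinates, with the match in capitals. They lie at chr17:29236761-29236786 in *Cdkn1a*, chr11:40562897-40562922 in *Ccng1*, chr4:11101361-11101386 in *Trp53inp1*, and chr2:127985501-127985526 and chr2:127986175-127986200 in *Bcl2l11*, of which only that of *Ccng1* is on the minus strand.

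Cdkn1a: tcagacctgaataGCACTTTggaaaa
Ccng1: acatttcatgaatGCACTTTtaaggt
Trp53inp1: aatgaacagcacaGCACTTTgccaaa
Bcl2l11, upstream site: gcctggtggaggaGCACTTTctaacc
Bcl2l11, downstream site: ctccccgactggaGCACTTTactgtc

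Values are FPKM, fragment counts divided by transcript length and by the mapped fragments of the library, as the authors calculated them. This allows for the length of genes but not for their GC content, so comparisons of level between genes are approximate. Summed FPKM ranged from 884018 to 1944596 per library. Depth relative to E8.5 WT replicate 1 was estimated from the commonest ratio among low values, on 182 to 253 genes of each other library. This estimate ranged from 1 to 1.45, and the absolute depth is unknown. *Dgcr8* was lower in both cKO groups without overlap, at 1.64 and 4.67 FPKM against 7.10 and 8.60 in E8.5 WT, and at 1.15 and 1.77 against 3.49 and 3.23 in E9.5 WT. Of all tested genes, 40.1% at E8.5 and 31.1% at E9.5 were lower without overlap. By quantitative PCR the study found no significant fall of *Dgcr8* at E8.5, and it proposes that some miRNAs remained at that stage. The tissue label held in every library: 8 of 8 cardiomyocyte markers exceeded 1 FPKM in all of them, with sums between 23470 and 71660. Markers of other tissues were also present. The 6 decidual stroma markers summed to 6613 FPKM in E8.5 cKO replicate 2 and to between 507.8 and 2134 in the other 7 libraries, and the 6 erythroid markers to between 7770 and 39580. In bulk tissue, fewer cells of a type cannot be told apart from less RNA per cell.

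In all 4 groups *Bax* and *Trp53* were the most abundant members, with group means between 98.0 and 189.8 FPKM. *Mdm2*, *Ccng1* and *Cdkn1a* followed, with group means between 4.13 and 24.5, and the other 5 had group means of 0.239 to 6.18. *Bax* and *Trp53* overlapped in both WT groups, while in both cKO groups both libraries of *Bax* were above both of *Trp53*. By group mean *Cdkn1a* ranked below *Ccng1* and *Mdm2* in E9.5 WT, where it overlapped *Ccng1* (2.84 and 20.9 FPKM). In E9.5 cKO it ranked directly after *Trp53* and above *Ccng1*, without overlap. The BH3-only genes *Bbc3*, *Pmaip1* and *Bcl2l11* reached at most 3.84 FPKM in any library, beside a lowest value of 90.7 for *Bax*.

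**Figure D1:**
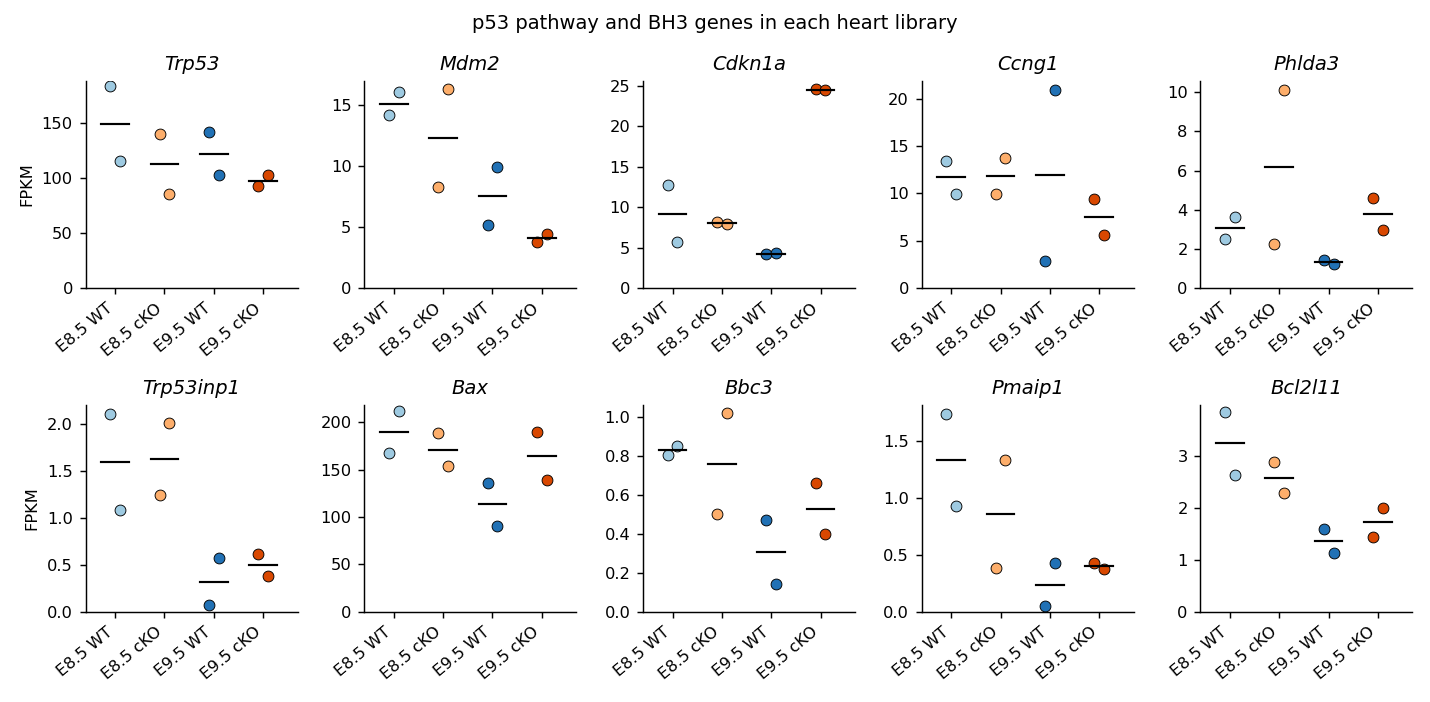
FPKM (y axis, starting at 0, a different scale in each panel) of the 10 genes in the 8 heart libraries, by stage and genotype on the x axis. Each point is a library and each bar the mean of 2; *Cdkn1a* in E9.5 cKO, at 24.6 and 24.4, stands above all other groups, while *Ccng1* in E9.5 WT spreads from 2.84 to 20.9.

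*Cdkn1a* (chr17:29090979-29100722, GRCm38 as for all gene positions in the table), which encodes the cyclin-dependent kinase inhibitor p21, was the member that differed most between genotypes at E9.5. It was at 12.7 and 5.72 FPKM in the WT libraries of E8.5 and at 8.13 and 7.94 in those of cKO. At E9.5 it was at 4.19 and 4.35 in WT and at 24.6 and 24.4 in cKO. Both E9.5 cKO libraries were higher than all 6 others, and the means at E9.5 differed 5.74-fold. Differences were tested with limma on log2(FPKM + 1), in 1 model of the 4 groups over the 10018 genes whose mean reached 1 FPKM. Genes with an adjusted p under 0.05 and a change of 1.5-fold or more count as called. The E9.5 difference of *Cdkn1a* was 2.28 on this log2 scale (SE 0.337, n = 2 per group), with a 95% interval from 1.5 to 3.05. The limma adjusted p was 0.0648, so *Cdkn1a* was not called. Over 13 alternative settings the difference stayed between 2.20 and 2.49, and the adjusted p lay between 0.0256 and 0.623. It was under 0.05 in 3 of them: 0.0256 with median-ratio scaling, 0.0375 with quantile normalization and 0.0467 with a filter at a mean of 5 FPKM.

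At E8.5 the *Cdkn1a* difference between genotypes was -0.09 (SE 0.337), with an interval from -0.86 to 0.69, and the libraries overlapped. The difference of the cKO effect between stages, tested as an interaction, was 2.36 (SE 0.476, limma adjusted p = 0.307), which is not past the threshold. Within the mutants, *Cdkn1a* was called higher at E9.5 than at E8.5, by 1.5 on the log2 scale (SE 0.337, limma adjusted p = 0.021), or 2.13 above the median change of all tested genes in that comparison. In WT the change between the stages was -0.86 (SE 0.337, limma adjusted p = 0.0627), close to the median gene at -0.84. The call within the mutants was lost without a filter on low values (limma adjusted p = 0.0519) and without E9.5 cKO replicate 1 (0.0926) or replicate 2 (0.0959). The sum of the 8 endothelial markers moved the same way at E9.5, from 118.1 and 110.4 FPKM in WT to 204.7 and 172.9 in cKO. All 8 exceeded 1 FPKM in every library. The sum of the 8 cardiomyocyte markers was also higher without overlap, at 51930 and 51070 in WT against 69860 and 71660 in cKO. Whether each marker was higher is not shown by a sum. Total FPKM per library differed too, at 1226923 and 1036533 in WT against 1944596 and 1109657 in cKO, and the marker sums were not scaled to it. The study, by contrast, counted fewer troponin T positive cells on sections of mutant hearts at this stage. Its quantitative PCR found several cardiac genes lower, *Tnni3* and *Gata4* among them. Erythroid markers summed to 14430 and 29570 in E9.5 WT and to 39580 and 29100 in cKO at that stage, which overlap. Between the stages within cKO, the cardiomyocyte sum was 51980 and 36280 at E8.5, below both E9.5 values. The decidual sum was 758.6 and 6613 at E8.5 and 687.5 and 668.9 at E9.5, also without overlap. The other marker sums overlapped between these stages. The part of these tissues in the *Cdkn1a* differences was not tested.

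**Figure D2:**
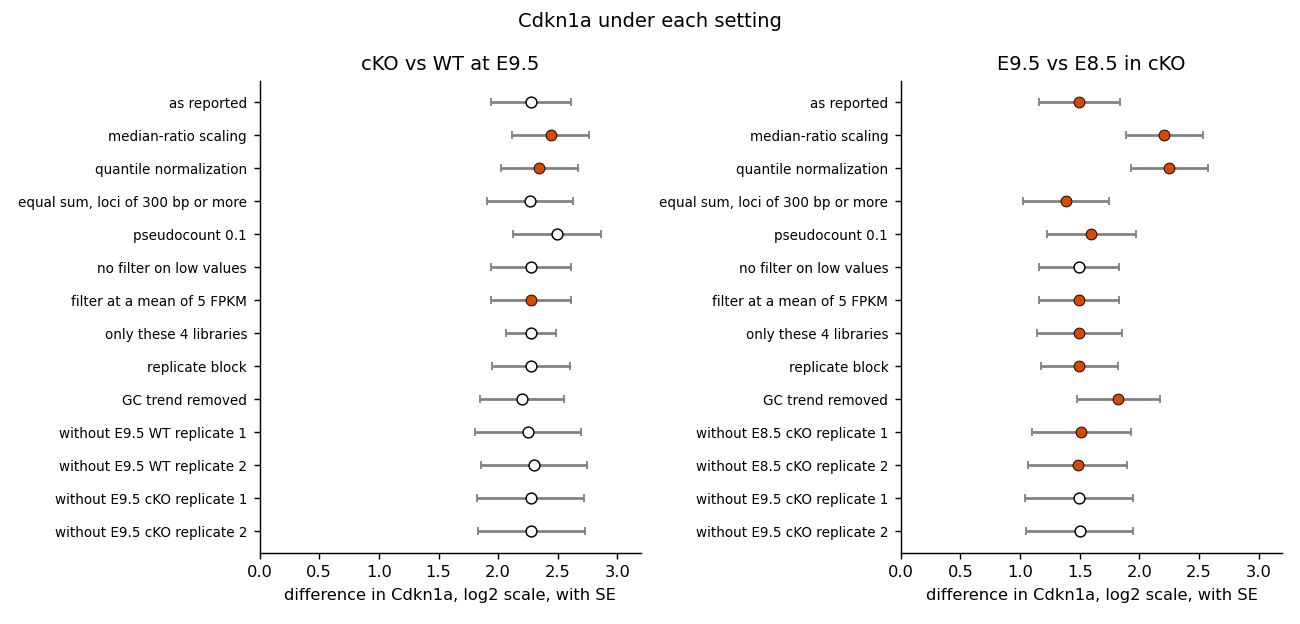
Difference in *Cdkn1a* on the log2 scale (x axis) between cKO and WT at E9.5 (left) and between E9.5 and E8.5 in cKO (right) under each setting (y axis), with standard errors as bars and filled points where the adjusted p was under 0.05. At E9.5 the values range from 2.20 to 2.49 and 3 alternatives are filled; within cKO they range from 1.39 to 2.25.

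*Trp53* (chr11:69580359-69591873) was at 183.7 and 115.9 FPKM in the WT libraries of E8.5 and at 140.6 and 85.9 in those of cKO. At E9.5 it was at 141.8 and 102.6 in WT and at 93.1 and 102.9 in cKO. The genotypes overlapped at both stages. The cKO difference was -0.41 (SE 0.355, limma adjusted p = 0.672) at E8.5 and -0.30 (SE 0.355, limma adjusted p = 0.76) at E9.5, where the interval ran from -1.12 to 0.52. The E9.5 value was -0.068 without E9.5 WT replicate 1 and -0.53 without E9.5 WT replicate 2. At E8.5 it was -0.075 and -0.74 without WT replicate 1 or 2, and -0.76 and -0.053 without cKO replicate 1 or 2. *Wrap53*, the neighbouring gene that starts close to *Trp53* on the opposite strand, was at 9.22 and 8.16 FPKM in WT and at 9.63 and 6.84 in cKO at E9.5, which also overlap, and its entry in the table ends before *Trp53* begins.

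*Mdm2* (chr10:117688875-117710758), the ligase that restrains p53, was not higher in the mutants. It was at 14.2 and 16.1 FPKM in the WT libraries of E8.5 and at 8.32 and 16.4 in those of cKO. At E9.5 the values were 5.18 and 9.97 in WT and 3.83 and 4.43 in cKO. Both E9.5 cKO libraries were below both of WT, but the difference of -0.68 (SE 0.38, limma adjusted p = 0.432) was not past the threshold, and its interval ran from -1.56 to 0.19. It was -1.10 without E9.5 WT replicate 1, -0.27 without E9.5 WT replicate 2 and -0.34 with the GC trend removed. From E8.5 to E9.5 within cKO, *Mdm2* was called lower by 1.31 on the log2 scale (-1.31, SE 0.38, limma adjusted p = 0.0372). In WT the change was -0.97 (limma adjusted p = 0.0634). The higher E8.5 cKO value, 16.4 FPKM, was in replicate 2, the library with the highest sum of decidual markers (6613 FPKM). The part of decidual cells in it was not tested. The call in cKO was lost with median-ratio scaling (-0.66, limma adjusted p = 0.32), with quantile normalization (-0.63, 0.359) and without E8.5 cKO replicate 2 (-0.86, 0.114) or E9.5 cKO replicate 1 (-1.23, 0.14) or 2 (-1.40, 0.134), among other settings.

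*Ccng1* (chr11:40748552-40755286), which encodes cyclin G1, a direct p53 target, was at 13.5 and 9.91 FPKM in the WT libraries of E8.5 and at 9.94 and 13.8 in those of cKO. At E9.5 it was at 2.84 and 20.9 in WT and at 9.37 and 5.63 in cKO, so that both cKO values fell between those of WT. The E9.5 difference was -0.15 (SE 0.702, limma adjusted p = 0.96) with an interval from -1.77 to 1.47, wide enough to hold a difference in either direction. *Trp53inp1* (chr4:11156441-11174377), which encodes a nuclear protein that promotes p53-dependent death, was at 2.11 and 1.08 FPKM in the WT libraries of E8.5 and at 1.25 and 2.01 in those of cKO. At E9.5 it was at 0.0739 and 0.571 in WT and at 0.616 and 0.379 in cKO, with an E9.5 difference of 0.20 (SE 0.309, limma adjusted p = 0.829).

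*Phlda3* (chr1:135766085-135769134), a p53 target whose product restrains AKT, was at 2.49 and 3.64 FPKM in the WT libraries of E8.5 and at 2.23 and 10.1 in those of cKO. At E9.5 it was at 1.43 and 1.22 in WT and at 4.60 and 2.98 in cKO. Both E9.5 cKO libraries were higher than both of WT, with a ratio of means of 2.86, and the difference of 1.02 (SE 0.519, limma adjusted p = 0.387) was not past the threshold. Its interval ran from -0.17 to 2.22. The high E8.5 value was in cKO replicate 2, the library with the highest sum of decidual markers (6613 FPKM), and the part of those cells in it was not tested.

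*Bax* (chr7:45461695-45466898), which encodes the effector that permeabilises mitochondria, was at 167.3 and 212.3 FPKM in the WT libraries of E8.5 and at 188.3 and 154.0 in those of cKO. At E9.5 the values were 136.1 and 90.7 in WT and 189.8 and 138.6 in cKO. The E9.5 cKO libraries were above those of WT by a small margin, since the lower cKO value exceeded the higher WT value by less than the replicates of either group differed. The difference was 0.54 (SE 0.315, limma adjusted p = 0.46) with an interval from -0.18 to 1.27. It was 0.83 and 0.25 without E9.5 WT replicate 1 or 2, and 0.32 without E9.5 cKO replicate 1. At E8.5 it was -0.15 (SE 0.315, limma adjusted p = 0.857).

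The 3 BH3-only genes were low throughout. *Bbc3* (chr7:16309583-16318334) was at 0.809 and 0.851 FPKM in the WT libraries of E8.5 and at 0.501 and 1.02 in those of cKO. At E9.5 the values were 0.473 and 0.142 in WT and 0.661 and 0.401 in cKO. *Pmaip1* (chr18:66458604-66465558) was at 1.73 and 0.932 FPKM in the WT libraries of E8.5 and at 0.384 and 1.33 in those of cKO, and at E9.5 at 0.0526 and 0.426 in WT and 0.430 and 0.379 in cKO. Both genes overlapped between genotypes at both stages. Their means over the 8 libraries, 0.607 and 0.708 FPKM, were under the filter, so that 8 of 10 members were tested. In a fit of 19580 features without the filter, the E9.5 differences were 0.23 (SE 0.201, limma adjusted p = 0.837) for *Bbc3* and 0.20 (SE 0.305, limma adjusted p = 0.973) for *Pmaip1*. *Bcl2l11* (chr2:128126038-128162547) was at 3.84 and 2.62 FPKM in the WT libraries of E8.5 and at 2.87 and 2.28 in those of cKO. At E9.5 the values were 1.60 and 1.14 in WT and 1.43 and 2.0 in cKO. Its genotypes overlapped at both stages, and the E9.5 difference was 0.20 (SE 0.259, limma adjusted p = 0.788) with an interval from -0.40 to 0.80. It was 0.34 and 0.056 without E9.5 WT replicate 1 or 2, and 0.35 and 0.047 without E9.5 cKO replicate 1 or 2. The 4 members with a miR-17 family site thus included *Cdkn1a*, higher without overlap at E9.5, and *Ccng1*, *Trp53inp1* and *Bcl2l11*, which overlapped.

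**Figure D3:**
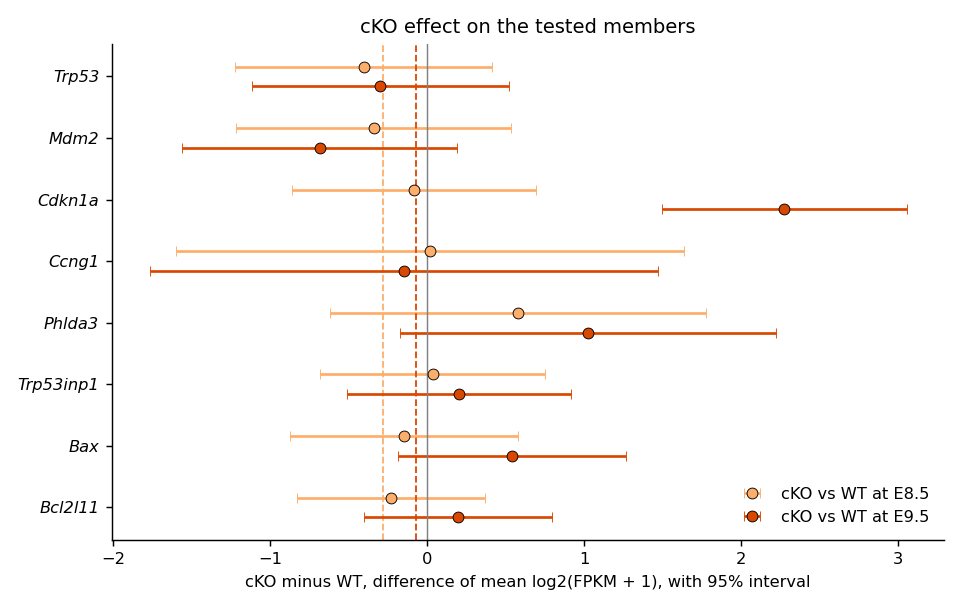
Difference between cKO and WT (x axis, log2 scale) for the 8 tested members at E8.5 and E9.5, with 95% intervals from limma and dashed lines at the median of all tested genes (-0.28 and -0.07). The E9.5 interval of *Cdkn1a*, from 1.5 to 3.05, is the one interval that does not reach 0.

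At E9.5, 0 of the 8 tested members were called between genotypes by limma, where 0.180% of all tested genes were called in either direction. At an unadjusted p under 0.05 and 1.5-fold, 1 member was higher (*Cdkn1a*), where 5.08% of genes were, and 0 were lower, where 9.99% were. Groups did not overlap for 3 members that were higher (*Cdkn1a*, *Phlda3* and *Bax*) and for 1 that was lower (*Mdm2*), beside 21.0% and 31.1% of all tested genes. The median difference of the members was 0.20 beside -0.07 over all tested genes. At E8.5, 0 members were called (0.00998% of genes were), and 0 passed the unadjusted threshold in either direction, where 0.240% of genes were higher and 6.90% lower. None of the 8 separated the groups at E8.5, where 2.54% of genes were higher and 40.1% lower without overlap. The median of the members was -0.12 beside -0.28 over all genes. The test of the difference between stages called 0 members, where 0.0399% of genes were called. At the unadjusted threshold it gave 1 that was higher, *Cdkn1a*, and 0 that were lower, beside 5.69% and 1.49% of genes.

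Between E8.5 and E9.5 in WT, 0 members were called higher, where 1.40% of genes were, and 2 were called lower, where 46.7% were. These were *Bcl2l11* (-0.83, SE 0.259, limma adjusted p = 0.0337) and *Trp53inp1* (-0.97, SE 0.309, limma adjusted p = 0.0357). All 8 tested members were below 0 and so was the median of all tested genes, at -0.84. Relative to that median *Bcl2l11* differed by 0.0051 and *Trp53inp1* by -0.13, while *Trp53* was 0.56 above it. Neither call was kept with median-ratio scaling, quantile normalization or removal of the trend with GC content. That of *Bcl2l11* was also lost when any library of E8.5 WT or E9.5 WT was left out (limma adjusted p from 0.0684 to 0.178), and that of *Trp53inp1* when any of them but E9.5 WT replicate 2 was (0.0611 to 0.173). In cKO, where the median gene changed by -0.64, *Cdkn1a* was the 1 member called higher, where 2.05% of genes were, and *Mdm2* the 1 called lower, where 28.5% were. The WT and cKO comparisons at E9.5 share libraries with the comparisons between stages, so their values are not independent.

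In E9.5 WT, replicate 2 was 7.36-fold above replicate 1 for *Ccng1*, 7.73-fold for *Trp53inp1* and 8.09-fold for *Pmaip1*, whose transcripts had a GC content of 40.8%, 38.8% and 41.8%. Over 9122 genes of these libraries the difference between the E9.5 WT replicates had a Spearman rho of -0.627 with GC content, and that between cKO and WT at E9.5 a rho of 0.405. The log2(FPKM + 1) of *Ccng1* was 2.51 higher in replicate 2, beside a median of 0.70 over 867 genes within 2 percentage points of its GC content. For *Trp53inp1* the difference was 0.55 beside a median of 0.82. *Cdkn1a*, with a GC content of 54.6%, differed between the E9.5 genotypes by 2.28, beside a median of 0.09 over 2047 genes of like content. *Phlda3* differed by 1.02 beside 0.16, *Bax* by 0.54 beside 0.16 and *Mdm2* by -0.68 beside -0.31.

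**Figure D4:**
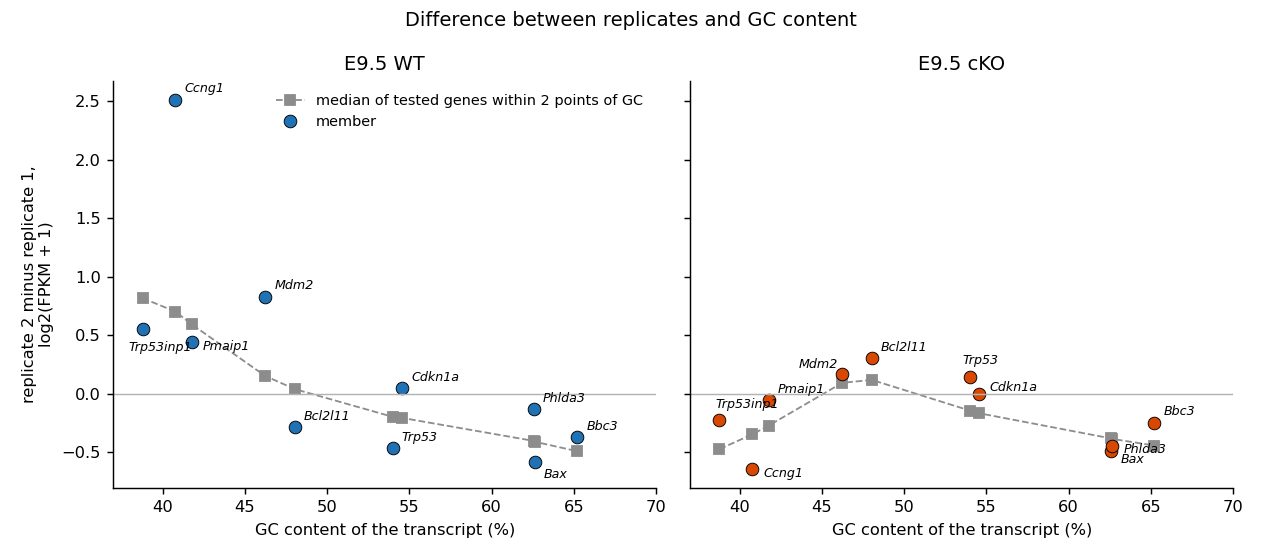
Difference between replicate 2 and replicate 1 in log2(FPKM + 1) (y axis) against the GC content of the transcript (x axis, %) for the 10 members in E9.5 WT (left) and E9.5 cKO (right). Squares give the median of tested genes of like GC content; in WT *Ccng1* lies at 2.51 beside 0.70.

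Among the other genes of the pathway, none was called between genotypes at either stage. The lists were drawn up from general knowledge with earlier results of these data known, and the counts that follow use the unadjusted threshold, which 5.08% of all tested genes passed as higher and 9.99% as lower at E9.5. Of 30 other p53 targets, 21 were tested at E9.5, of which 3 were higher and 1 was lower, with a median difference of -0.06 beside -0.07 over all tested genes. The count of lower genes was 0 with median-ratio or quantile scaling, with the GC trend removed and without E9.5 WT replicate 1 or E9.5 cKO replicate 1, and 3 without E9.5 cKO replicate 2. *Btg2*, an antiproliferative gene, was at 2.91 and 4.54 FPKM in WT and at 17.7 and 15.8 in cKO, a difference of 1.93 (SE 0.286, limma adjusted p = 0.0648). *Sesn2*, which restrains mTORC1 under stress and is also induced by the transcription factor ATF4, was at 3.60 and 3.22 in WT and at 13.3 and 9.20 in cKO (1.46, SE 0.253, limma adjusted p = 0.085). Neither overlapped between genotypes, and their adjusted p was under 0.05 in 4 and 1 of 13 alternative settings. *Dcxr*, a sugar reductase gene, was 1.15 higher (SE 0.416, limma adjusted p = 0.24). *Rps27l*, a ribosomal protein paralog induced by p53, was lower by contrast, at 1951 and 1678 FPKM in WT and 1054 and 1204 in cKO (-0.68, SE 0.232, limma adjusted p = 0.221); its paralogs may share reads with it. Over the alternatives *Dcxr* ran from 0.66 to 1.64 and *Rps27l* from -0.79 to -0.33.

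Of 19 regulators of p53, such as *Mdm4*, *Usp7* and *Chek1*, 12 were tested at E9.5, and 0 were higher or lower. Their differences ranged from -0.55 to 0.52, with a median of -0.07. Of 17 other Bcl2 family genes, 11 were tested, of which 2 were higher and 0 lower, with a median of 0.44. Without E9.5 WT replicate 1 or E9.5 cKO replicate 1 the count of higher genes was 1 and the median 0.28 or 0.19, and with the GC trend removed the count was 4. *Bik*, a BH3-only gene, was at 9.01 and 8.76 FPKM in WT and 27.1 and 19.9 in cKO (1.29, SE 0.455, limma adjusted p = 0.232). *Bnip3*, a mitophagy receptor gene induced by hypoxia, was at 130.7 and 135.0 in WT and 210.4 and 451.9 in cKO (1.21, SE 0.358, limma adjusted p = 0.171). This difference was 0.66 without E9.5 cKO replicate 2 and 1.76 without replicate 1. Of 11 tested genes of this list, 9 were above 0 at E9.5 and 1 was at E8.5, where 4342 and 1926 of all 10018 tested genes were.

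Of 18 caspase and apoptosome genes, 17 were tested at E9.5, of which 0 were higher and 4 lower, with a median of -0.15. *Cycs*, which encodes cytochrome c, was at 345.4 and 445.3 FPKM in WT and at 141.6 and 243.6 in cKO (-1.07, SE 0.318, limma adjusted p = 0.171). *Cflar*, an inhibitor of caspase 8, was at 40.7 and 29.4 in WT and at 18.7 and 18.0 in cKO (-0.88, SE 0.373, limma adjusted p = 0.305). *Aifm1*, which encodes the mitochondrial flavoprotein AIF, was at 21.2 and 26.2 in WT and at 10.9 and 14.5 in cKO (-0.86, SE 0.263, limma adjusted p = 0.179). The count of 4 fell to 0 without E9.5 cKO replicate 1, to 2 without E9.5 WT replicate 2 or E9.5 cKO replicate 2 and with an equal sum over loci of at least 300 bp, and to 1 when the trend with GC content was removed within each library, a setting chosen after seeing the data. Over the alternatives *Cycs* ran from -1.46 to -0.65 and *Cflar* from -1.11 to -0.51. *Cycs*, *Cflar* and *Aifm1* have a GC content of 40.8%, 44.5% and 49.3%. At E8.5, where 6.90% of all genes passed the unadjusted threshold as lower and the median gene was at -0.28, 1 gene of this list passed, *Dffb*, a nuclease gene (-0.74, SE 0.288, limma adjusted p = 0.59), and 1 of the Bcl2 family list, *Bid* (-0.70, SE 0.273, limma adjusted p = 0.59). In both lists this count was 0 with median-ratio scaling, quantile normalization, the GC trend removed or the compared libraries alone, and without E8.5 WT replicate 1 or E8.5 cKO replicate 2. Without E8.5 cKO replicate 1 it rose to 8 of 17 and 4 of 11, where 2314 of all 10018 genes were lower. For the caspase list it was also 3 with an equal sum over longer loci, and 2 with the replicate block or no filter.

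**Figure D5:**
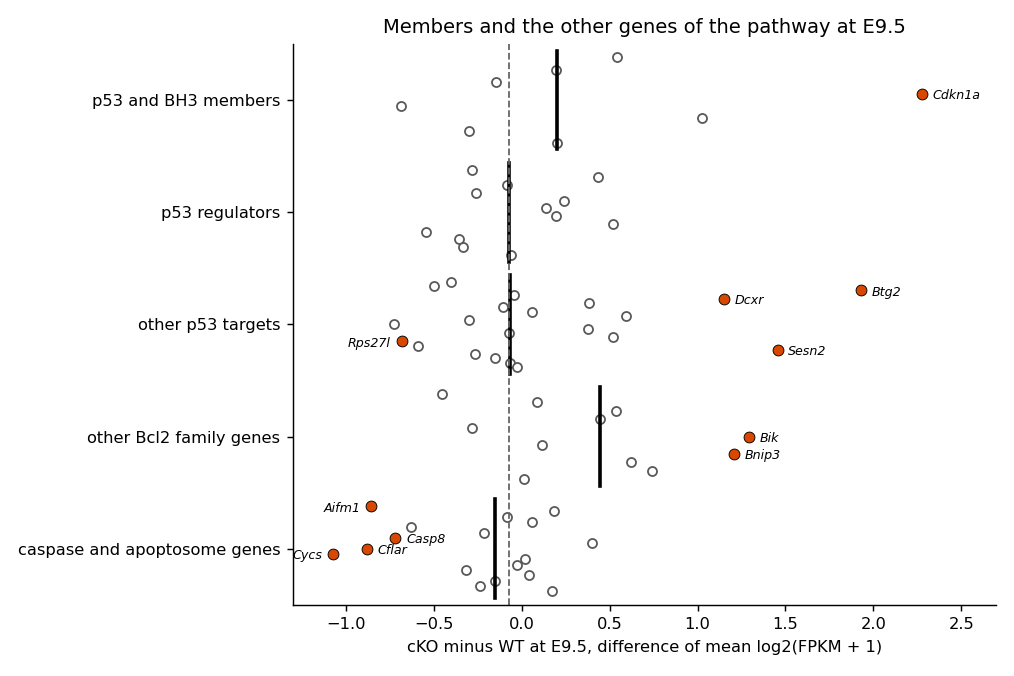
Difference between cKO and WT at E9.5 (x axis, log2 scale) of each tested gene in the p53 and BH3 list and in 4 lists of the same pathway (y axis); filled points passed the unadjusted threshold with 1.5-fold, bars mark the median of a list and the dashed line the median of all tested genes, -0.07. *Cdkn1a*, *Btg2* and *Sesn2* lie farthest to the right and *Cycs* farthest to the left.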

How the data were processed

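RNA from 8 libraries, 2 from each of 4 groups by stage and genotype, was reverse transcribed and amplified from low input with a Smart-seq chemistry, per the labels and the study's methods. The authors deposited FPKM for each library; BWA and mm9 are named in the submitters' processing notes, the program that made the FPKM is not given in the sources used here, and the positions in the table matched GRCm38 (91.69% of 9515 gene starts within 1000 bp) rather than NCBIM37 (5.066% of 9257). Positions are printed from the table, counted from 1.

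The table held 24930 entries and 8 value columns, all used. Of entries sharing a symbol (285 symbols) only that of highest mean was retained, which with 27 entries whose symbols had turned into dates left 24385 features. The 10018 genes whose mean reached 1 FPKM were analysed as log2(FPKM + 1), a scale that understates the change of low genes, with limma 3.58.1 in R 4.3.3: 1 model of 4 groups, variances following the mean, two-sided tests and Benjamini-Hochberg adjustment over all 10018 genes. The study names an unpaired t-test in general; a moderated test across all genes was used here. FPKM hold no counts, so no counting interval was possible. With 2 libraries a group, p-values rest on the spread between these libraries, pooled over the 4 groups and moderated across all tested genes. They do not measure the spread of the compared groups alone.

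The members and lists were chosen with earlier results of these data known. The genes named beside the members were those called, or, of each list, up to 3 higher and 3 lower at E9.5 and up to 2 each way at E8.5, by size of change, among genes at an unadjusted p under 0.05 without overlap, plus *Wrap53* and *Dgcr8*. An item of the apoptosis lists is not reported here. Alternatives were other scalings, pseudocounts and filters, fits to the compared libraries alone, a replicate block and leaving out each library. Removal of the GC trend and a crossed block were added after seeing the data. Promoter and miRNA sequences came from RefSeq (GRCm38.p6), and untranslated regions from GENCODE on NCBIM37.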

Additional observations from a re-analysis of the deposited data

How the results depend on the processing

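The 8 tested members kept the direction of their E9.5 difference under the alternatives run, except *Ccng1*, which was 0.15 after removal of the GC trend (a setting added after seeing the data) and ran from -1.41 to 1.11 when a library was left out (1.11 without E9.5 WT replicate 2, 0.17 without E9.5 cKO replicate 2), and *Trp53inp1*, which was -0.074 without E9.5 WT replicate 1 (-0.074 to 0.48 when a library was left out, and up to 0.78 over all alternatives). Between stages in WT *Bcl2l11* turned to 0.014 with quantile normalization. At E9.5 the members called higher numbered 1 in place of 0 with median-ratio scaling, quantile normalization and the filter at 5 FPKM. Members higher at the unadjusted threshold numbered 2 with quantile normalization or with the compared libraries alone, and 1 to 2 when a library was left out. Those lower numbered 1 with the replicate block, and 0 to 2 when a library was left out. At E8.5 they numbered 0 to 1 that were higher (1 without E8.5 cKO replicate 1), and in the test between stages 1 to 2 higher and 0 to 1 lower. Between stages in WT, the members called lower numbered 0 with median-ratio scaling, quantile normalization, no filter and the GC trend removed, and 0 with the filter at 5 FPKM, which leaves out both called members. They numbered 5 with an equal sum over longer loci, and 0 to 2 when a library was left out. In cKO they numbered 0 with median-ratio scaling, quantile normalization, no filter, the compared libraries alone and the GC trend removed, and 0 to 2 when a library was left out. Those called higher numbered 0 without a filter and 0 to 1 when a library was left out. The causes were not tested.

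The labels number the replicates alike in all groups, but nothing else ties equal numbers together. Deviations of equally numbered libraries correlated at 0.0168 and -0.00358 between genotypes at E9.5 and E8.5, and at -0.116 and -0.0465 between stages in WT and cKO, so the numbers were not taken as pairs. With the replicate block *Cdkn1a* at E9.5 stayed at 2.28 (limma adjusted p = 0.0973), and the *Trp53inp1* call in WT was lost (limma adjusted p = 0.052). With the WT numbers crossed between stages and the compared libraries alone, a fit added after seeing the data, the calls were 214 higher and 6031 lower, with 5 members lower, against 184, 5440 and 3 with the compared libraries alone.

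Scaling and the choice of libraries in the fit both moved the background. Over all tested genes, at E9.5 the calls were 17 higher and 1 lower, against 54 and 2 with median-ratio scaling and 0 and 0 with the compared libraries alone. At the unadjusted threshold 509 were higher and 1001 lower, against 868 and 744 with median-ratio scaling, and at E8.5 24 and 691 against 133 and 85. Between stages 140 were called higher and 4683 lower in WT, against 321 and 69, and 205 and 2857 in cKO, against 400 and 77. Depth is unknown in absolute terms, so values under 1 FPKM, as in *Bbc3* and *Pmaip1*, carry an error that could not be calculated.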

Other observations

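The wider pathway was also compared between stages within the mutants, where 2.05% of all tested genes were called higher and 28.5% lower, and where counts depended on the scaling. Of 12 tested p53 regulators, 5 were called lower at the later stage (*Chek1*, *Hipk2*, *Mdm4*, *Rchy1* and *Usp7*, named after their values were seen), and 9 of 12 were in WT, where 46.7% of all genes were. Their median change in cKO was -0.73 beside -0.64 over all tested genes, and -0.31 beside -0.05 with median-ratio scaling, which called 0. Of 21 other p53 targets, 1 was called higher, *Sesn2* (1.05, limma adjusted p = 0.0238), and 4 lower, against 2 higher and 0 lower with median-ratio scaling. *Sesn2* was at 5.25 and 4.42 FPKM in E8.5 cKO and at 13.3 and 9.20 in E9.5 cKO, without overlap, but no gene of the list was called higher with no filter, with the compared libraries alone, without E8.5 cKO replicate 2 or without either E9.5 cKO library, and 3 were without E8.5 cKO replicate 1. Of 11 other Bcl2 family genes, 2 were called lower in cKO, *Bad* (-0.90, limma adjusted p = 0.0498) and *Mcl1* (-1.35, limma adjusted p = 0.0172), an antiapoptotic gene, against 0 with median-ratio scaling and 1 lower and 1 higher without E8.5 cKO replicate 1, and 7 were in WT, where *Mcl1* changed by -1.57 (limma adjusted p = 0.0118). Of 17 caspase and apoptosome genes, 2 were called lower in cKO, *Aifm1* (-0.95, limma adjusted p = 0.0331) and *Casp8* (-1.0, limma adjusted p = 0.0355), the gene of an initiator caspase, against 0 with median-ratio scaling and 4 without E8.5 cKO replicate 1, and 8 were in WT. Without E9.5 cKO replicate 1, and likewise without replicate 2, 0 genes of these 4 lists were called in cKO. The WT counts of 9, 7 and 8 also fell to 0 with median-ratio scaling, quantile normalization or the GC trend removed and without either E8.5 WT library or E9.5 WT replicate 1, and to 3, 2 and 1 without E9.5 WT replicate 2.

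In the test of the cKO effect between stages, all 11 tested genes of the Bcl2 family list were above 0, with a median of 0.57 beside 0.18 over all tested genes. Over all tested genes, 6512 of 10018 were above 0. *Bnip3* differed by 1.63 (limma adjusted p = 0.589) and its paralog *Bnip3l* by 1.12 (limma adjusted p = 0.693), and none of the list was called.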
